A study of Homo sapiens with 2 samples.

Results

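H3K4me3, a histone mark found mainly at active or primed promoters, was examined at the start sites of 7 genes that are used to tell epithelial from mesenchymal cells: CDH1, EPCAM and ESRP1 on the epithelial side, and VIM, CDH2, ZEB1 and ZEB2 on the mesenchymal side. The cells were HEC-1-B, an established human endometrial (uterine) adenocarcinoma line, and the mark was mapped by ChIP-seq, the sequencing of DNA recovered by chromatin immunoprecipitation. The groups were 1 library labelled wild type and 1 library labelled ZNF143KO, from cells in which the zinc-finger transcription factor ZNF143 was knocked out; whether the knockout cells are 1 clone or a pool, and any drug treatment, are not given in the sources used here. Members were all regions of the 2 deposited peak lists within 5 kb of 1 fixed hg19 start site for each gene. They numbered 9 of 19782 wild-type regions and 6 of 19647 knockout regions on the assembled chromosomes. With 1 library per genotype no difference below has a replicate check and none was tested.

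Epithelial cells hold together through E-cadherin, the product of CDH1, and in the epithelial-mesenchymal transition this protein gives way to N-cadherin, the product of CDH2, while vimentin filaments replace part of the keratin network. ZEB1 and ZEB2 are zinc-finger repressors that bind E-box sequences in the CDH1 promoter and silence it. ESRP1 is an RNA-binding protein that keeps splicing in its epithelial pattern, and EPCAM is an epithelial adhesion molecule of the cell surface. H3K4me3 marks where transcription may start and does not measure RNA.

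The DNA before the start was available from RefSeq (GRCh38.p14 promoter table) for 4 of the 7 genes, VIM, CDH2, ZEB1 and ZEB2. The 250 bases before the first start listed for each are shown, because enzymes that write H3K4me3 are drawn to CpG-rich promoters. Whether the count of CG goes with a region over the start site was not tested. Capitals mark CG dinucleotides, and each sequence reads 5′ to 3′ on the gene's own strand. These starts belong to another genome build than the peak lists, so they may differ from the hg19 start sites used below.
VIM: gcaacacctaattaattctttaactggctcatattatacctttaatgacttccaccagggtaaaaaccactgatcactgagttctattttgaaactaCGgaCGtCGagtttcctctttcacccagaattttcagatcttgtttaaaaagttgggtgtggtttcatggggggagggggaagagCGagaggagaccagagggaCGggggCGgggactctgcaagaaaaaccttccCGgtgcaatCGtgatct
CDH2: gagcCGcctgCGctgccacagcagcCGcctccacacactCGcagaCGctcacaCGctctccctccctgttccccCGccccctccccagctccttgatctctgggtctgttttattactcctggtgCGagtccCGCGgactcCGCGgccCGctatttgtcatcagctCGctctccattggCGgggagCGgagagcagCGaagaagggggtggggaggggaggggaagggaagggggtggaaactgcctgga
ZEB1: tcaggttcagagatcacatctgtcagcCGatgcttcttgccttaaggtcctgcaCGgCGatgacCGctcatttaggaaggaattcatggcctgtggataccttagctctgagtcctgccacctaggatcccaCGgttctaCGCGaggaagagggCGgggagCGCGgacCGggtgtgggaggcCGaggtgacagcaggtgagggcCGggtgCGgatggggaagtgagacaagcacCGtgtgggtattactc
ZEB2: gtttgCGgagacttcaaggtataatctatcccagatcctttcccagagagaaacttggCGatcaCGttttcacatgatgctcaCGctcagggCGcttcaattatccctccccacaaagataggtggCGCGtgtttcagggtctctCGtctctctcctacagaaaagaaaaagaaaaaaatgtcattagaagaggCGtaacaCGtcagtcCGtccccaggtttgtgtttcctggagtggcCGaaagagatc

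The VIM window held 8 CG dinucleotides and the ZEB2 window 12, against 15 for ZEB1 and 17 for CDH2. The median of 35114 windows of the same length in the table was 11, with quartiles of 3 and 23, so all 4 lay in the middle range. The table lists 7 starts for ZEB1, whose windows held between 7 and 27 CG, and 2 for CDH2, the other with 4. The E-box letters CAGGTG, which read CACCTG on the opposite strand, occurred in the first and the third ZEB1 window, once and 2 times, and in no window of VIM, CDH2 or ZEB2. At least 1 such match was present in 17.5% of all windows. The letters ACTACAA, part of the ZNF143 recognition sequence, were in none of the 11 windows of these genes on either strand and in 2.47% of all windows.

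Of the 7 start sites, 6 had a region within 5 kb in each list, and they were the same 6. The exception was ESRP1. Both marked epithelial genes, CDH1 and EPCAM, had their start site inside a region in both genotypes, and all 4 mesenchymal genes had at least 1 region within 5 kb. No hg19 annotation was used, so the share of all start sites with a region within 5 kb is not given, and 6 of 7 cannot be read as more or fewer than other genes would show. The map of regions around the start sites shows their extent.

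**Figure D1:**
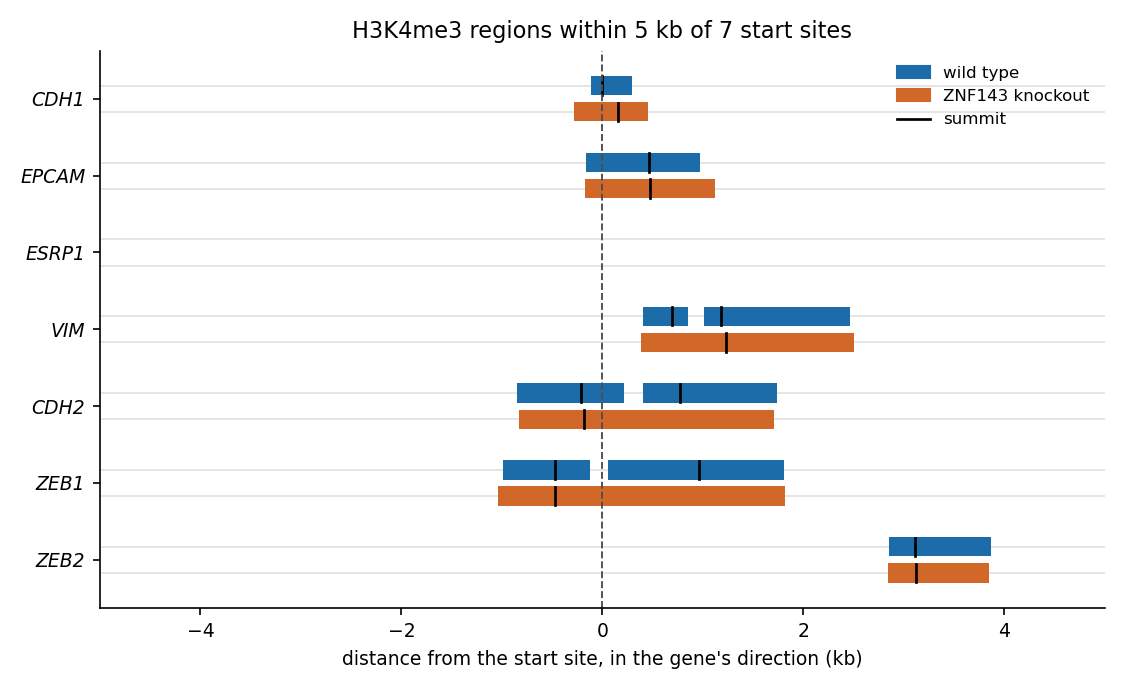
Regions of the wild-type (blue) and ZNF143 knockout (orange) lists within 5 kb of 7 hg19 start sites; the horizontal axis is the distance from the start site in the direction of the gene, in kb, and black ticks are summits. VIM, CDH2 and ZEB1 each had 2 wild-type regions and 1 knockout region, the ZEB2 region lay 2.85 kb into the gene, and ESRP1 had none.

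At CDH1 (start site on chromosome 16 at 68771195) the wild-type region ran from 68771084 to 68771494. It was 411 bp wide, from 111 bp before to 299 bp after the start, with its summit 4 bp before it. The knockout region ran from 68770914 to 68771644. It was 731 bp wide, from 281 bp before to 449 bp after the start, with its summit 155 bp after it. The region was 1.78 times as wide in the knockout list, where the median over 16501 one-to-one pairs of overlapping regions was 1.06 times, and 3.75% of pairs had a ratio at least as large. CDH1 was narrow for its list in both genotypes, at the 20.8 percentile of wild-type widths and the 32.9 percentile of knockout widths.

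CDH1 also had the largest difference in rank among the 3 members with a one-to-one pair, which were CDH1, EPCAM and ZEB2. The authors' fold, the summit pileup over a local background, was 10.8 for wild type and 17.6 for knockout. These stood at the 46.0 and the 86.7 percentile of their own lists, a shift of 40.7 points. By the deposited −log10 q, 20.9 and 114, the percentiles were 21.4 and 37.8, a shift of 16.5 points. Both rank measures placed CDH1 higher in the knockout list, by unequal amounts. A shift of more than 10 points upward was seen in 8.90% of all pairs by fold and in 8.98% by −log10 q, and CDH1 was the only 1 of the 3 member pairs past that size. With CDH1 itself counted, 112 of the 16501 pairs had an upward shift by fold at least as large, and 377 by −log10 q.

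The fragments stacked at the CDH1 summit, recovered from the fold and p columns, numbered 25 for wild type (exact 95% Poisson interval 16.2 to 36.9) and 128 for knockout (107 to 152). These intervals cover counting error only. The local background rate was 1.40 fragments for wild type, the lowest rate of that list, and 6.35 for knockout. The fold adds 1 to the pileup and to this rate, which lowers it most where the rate is low, as for wild type. How much of the CDH1 shift by fold comes from this was not tested. Ranked by pileup, the CDH1 shift was 14.3 points, and 546 of the 16501 pairs had an upward shift at least as large. Values were higher across the knockout library: its lowest background rate was 2.31 times that of the wild type, and the median ratio of summit pileups over 17637 shared loci was 1.86. Total reads were not used, so depth itself was not measured. A locus here is the set of regions of either list joined by overlap. At CDH1 the ratio was 5.12 (exact 95% interval 3.32 to 8.21). On the log2 scale and relative to the median of all shared loci, CDH1 was higher in the knockout by 1.46 (interval 0.84 to 2.14). A value above 1 was found at 2.51% of shared loci, and 178 loci, CDH1 included, had a value at least as high.

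The CDH1 wild-type pileup was low, and ratios scatter more at weak loci. Among the 2965 loci with a wild-type pileup between 12.5 and 50 fragments, 125 (4.22%, CDH1 included) had a ratio at least as high, and the 5th and 95th percentiles were −1.02 and 1.35. Some part of CDH3, another cadherin gene, is also within 5 kb of the CDH1 start in the gene table. The distance to the start of CDH3 was not examined. Loci around CDH1 are given beside it and were not matched to it for wild-type pileup. The other 798 shared loci on chromosome 16 had a median of 0.17, and the 32 within 1 Mb of CDH1 had a median of 0.13 and a highest value of 0.46.

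EPCAM (chromosome 2, start site 47596287) had nearly the same region in both lists. The wild-type region ran from 47596126 to 47597260, from 161 bp before to 973 bp after the start, and the knockout region from 47596113 to 47597410, from 174 bp before to 1123 bp after it. The summits lay 464 and 473 bp after the start. Fold was 12.2 and 11.9 in the wild-type and knockout lists, at the 54.8 and 54.6 percentile. The −log10 q was 84.9 and 164, at the 41.6 and 43.5 percentile. Relative to the median of all loci its pileup, 117 and 236 fragments, was higher in the knockout by 0.12 on the log2 scale (interval −0.21 to 0.45). EPCAM thus held its rank by both measures while CDH1, the other marked epithelial gene, did not.

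ESRP1 (chromosome 8, start site 95653302) was the single unmarked start site. The nearest region lay 77.9 kb beyond the start in both lists, and on the other side the nearest was 86.5 kb away. All 3 regions within 100 kb were in both lists, and none was near the ESRP1 start. The lowest pileup of any region on the assembled chromosomes was 7 fragments (wild type) or 11 (knockout). A call depends on the local rate too, so the lowest detectable height at ESRP1 is not known. A weak mark there may have gone uncalled.

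The mesenchymal structural gene VIM (chromosome 10, start site 17270258), which encodes vimentin, had 2 wild-type regions, neither covering the start site. The first ran from 17270665 to 17271106 and began 407 bp after the start. The second ran from 17271273 to 17272723, with its summit 1182 bp after the start. A gap of 166 bp separated them, between 849 and 1014 bp after the start. The knockout list had 1 region across both, from 17270638 to 17272766, beginning 380 bp after the start and with its summit at 1229 bp. VIM was the strongest member by pileup, with 431 wild-type and 686 knockout fragments, at the 85.0 and the 77.4 percentile.

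Rank by fold told otherwise for VIM. The 2 wild-type regions had folds of 4.99 and 8.80, at the 12.4 and the 34.4 percentile, and the knockout region one of 8.70, at the 34.3 percentile. By −log10 q the wild-type regions stood at the 42.0 and the 70.8 percentile, and the knockout region at the 65.5 percentile. The local background rate at VIM was 48.1 fragments for wild type and 78.0 for knockout, against 1.40 and 6.35 at CDH1. The fold is the pileup plus 1 over this rate plus 1, so a high local rate lowers it at a given pileup. An antisense RNA gene, VIM-AS1, is within 5 kb of the VIM start in the gene table, and ChIP-seq regions carry no strand.

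CDH2 (chromosome 18, start site 25757445), the gene of N-cadherin, lies on the reverse strand. Its wild-type regions ran from 25757231 to 25758292, across the start, and from 25755706 to 25757038, within the gene. They had nearly equal folds, 5.46 and 5.56, and nearly equal pileups, 98 and 100 fragments. The gap of 192 bp between them lay from 215 to 406 bp after the start. The knockout list had 1 region over both, from 25755741 to 25758276. Its fold was 6.47 and its pileup 182 fragments. The knockout summit lay 187 bp before the start, close to the wild-type summit of 98 fragments at 214 bp before it. The wild-type summit of 100 fragments lay 769 bp after the start.

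CDH2 was among the weaker members by each measure. Its wild-type regions stood at the 16.5 and the 16.8 percentile by fold and at the 29.4 and the 30.0 percentile by −log10 q. The knockout region stood at the 24.0 percentile by fold and the 33.2 percentile by −log10 q. At 2536 bp it was at the 99.6 percentile of widths in its list, so it was a wide region of modest height.

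ZEB1 (chromosome 10, start site 31608101), a repressor of CDH1, had wild-type regions on both sides of the start. The first ran from 31607116 to 31607978 and ended 123 bp before the start. The second ran from 31608159 to 31609911 and began 58 bp after it. The gap of 180 bp thus held the start site itself, from 122 bp before to 57 bp after it. In the knockout list a single region from 31607066 to 31609920 covered the start. It was 2855 bp wide, at the 99.9 percentile, and was the widest member.

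The wild-type ZEB1 regions had pileups of 375 and 316 fragments and the knockout region one of 651, with its summit 471 bp before the start, close to the first wild-type summit at 475 bp before it. By fold they stood at the 28.5 and the 22.1 percentile in the wild type and at the 28.1 percentile in the knockout. By −log10 q they stood at the 61.2 and the 52.2 percentile, and at the 59.0 percentile in the knockout. ZEB1-AS1, an antisense RNA gene, is within 5 kb of the ZEB1 start in the gene table, so these regions cannot be given to ZEB1 alone.

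ZEB2 (chromosome 2, start site 145277958), the other repressor of the family, lies on the reverse strand and had no region over its start in either list. Its single region ran from 145274092 to 145275106 (wild type) and from 145274113 to 145275113 (knockout). The near edge lay 2852 and 2845 bp into the gene, and the summits 3116 and 3124 bp. This region had the highest fold of the members in both lists, 18.7 and 18.0, at the 88.6 and the 88.3 percentile. By −log10 q it stood at the 53.5 percentile of wild-type and the 45.9 percentile of knockout regions, a shift of −7.55 points. The gene table lists ZEB2-AS1, LINC01412 and LINC02993 within 5 kb of the ZEB2 start, so the region cannot be given to ZEB2 alone. Of all members it lay closest to the 5 kb limit. The nearest regions outside that limit, both in the wild-type list, lay 9.03 kb into VIM and 9.35 kb into CDH2.

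**Figure D2:**
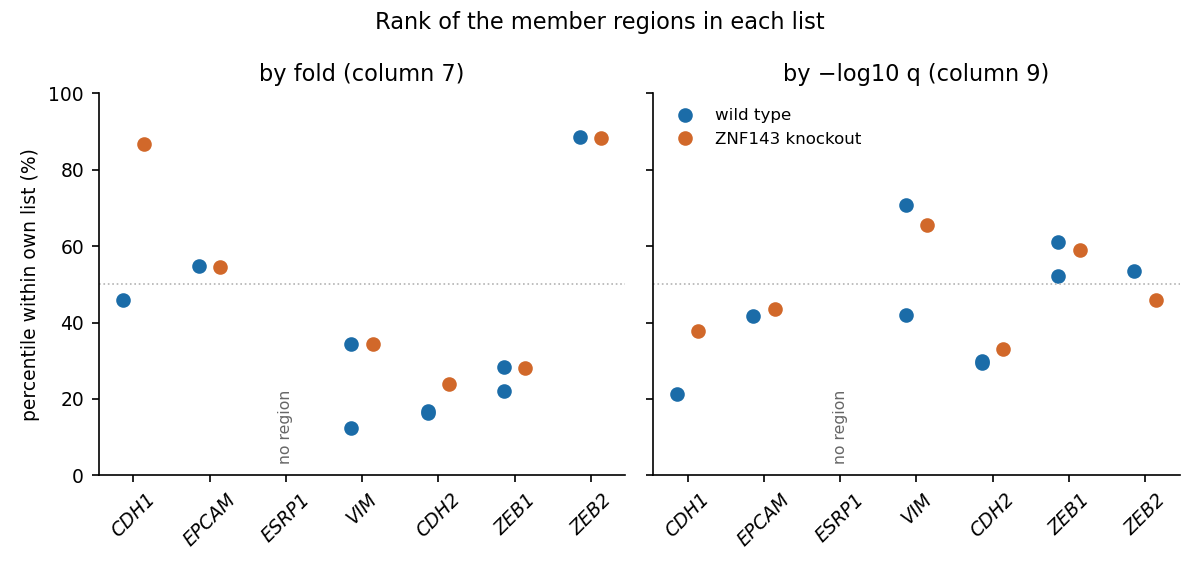
Percentile of each member region within its own list by the authors' fold (left) and −log10 q (right), on a vertical axis from 0 to 100%; each point is 1 region of the wild-type (blue) or knockout (orange) list. By fold, CDH1 stood at the 46.0 and the 86.7 percentile, EPCAM and ZEB2 held their ranks, and VIM, CDH2 and ZEB1 lay below the 35th percentile.

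The plot of percentiles sets the 2 sides beside each other. The sides did not separate by fold: the regions of VIM, CDH2 and ZEB1 ranked below those of CDH1 and EPCAM in each list, and that of ZEB2 ranked above both. By −log10 q, the regions of VIM, ZEB1 and ZEB2 ranked above both epithelial genes in each list, the weaker wild-type VIM region at the 42.0 percentile only just above EPCAM at the 41.6 percentile. CDH2 ranked between CDH1 and EPCAM in the wild type and below both in the knockout. Over all members the median fold percentile was 28.5 for the 9 wild-type regions and 44.5 for the 6 knockout regions, and by −log10 q 42.0 and 44.7, where the median of a whole list is 50 by construction. Median widths were 1062 bp (wild type) and 1713.5 bp (knockout), against 883 and 1003 bp for the whole lists. VIM, CDH2 and ZEB1 each counted as 2 wild-type regions here, and with regions within 1 kb merged the members' medians were 1597 and 1713.5 bp.

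All 3 genes with 2 wild-type regions, VIM, CDH2 and ZEB1, had a single knockout region spanning both, so 3 of the 6 knockout members spanned several wild-type regions. This was the case for 5.27% of all knockout regions. Among the 454 knockout regions at least as wide as the narrowest of these 3 (2129 bp) it was 32.8%. The reverse, a wild-type region spanning several knockout regions, occurred at 0.551% of wild-type regions and at none of the 9 members. The wild-type gaps of 166 to 192 bp were close to the narrowest region of each list, 162 and 174 bp. The part of depth and of peak-calling settings in this joining was not tested.

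**Figure D3:**
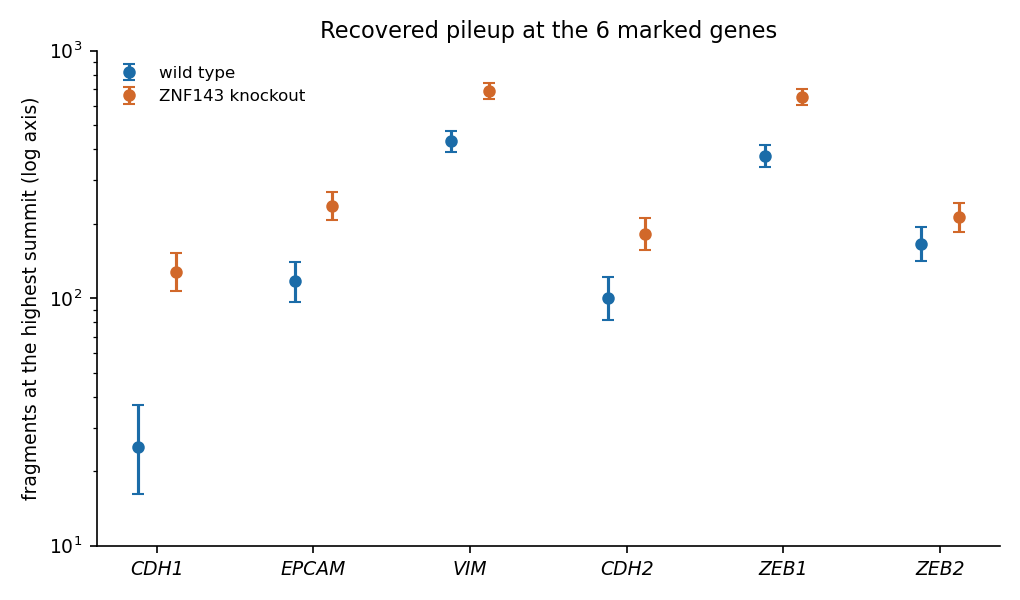
Fragments at the highest summit within each of the 6 marked genes, on a log axis, in the wild-type (blue) and knockout (orange) library; bars are exact 95% Poisson intervals, which cover counting error only. CDH1 had 25 and 128 fragments, and VIM, the highest, 431 and 686.

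Summit pileups were higher in the knockout library at all 6 marked genes, as at most shared loci. The ratio was 5.12 at CDH1, 2.02 at EPCAM, 1.82 at CDH2, 1.74 at ZEB1, 1.59 at VIM and 1.28 at ZEB2, against the median of 1.86. Each ratio sets the highest wild-type summit of a locus against the highest knockout summit, and at CDH2 these fell within different wild-type regions. The local rate at these summits was also higher in the knockout at each gene. In wild type and knockout it was 1.40 and 6.35 at CDH1, 8.67 and 18.9 at EPCAM, and 17.2 and 27.3 at CDH2. It was 47.7 and 87.5 at ZEB1, 48.1 and 78.0 at VIM, and 7.91 and 10.9 at ZEB2. The pileup ratios take no account of this local rate. Relative to the median ratio of all shared loci, the log2 values of the mesenchymal genes were −0.03 at CDH2 (interval −0.39 to 0.34), −0.10 at ZEB1 (−0.28 to 0.09), −0.22 at VIM (−0.40 to −0.05) and −0.53 at ZEB2 (−0.83 to −0.23). Among all shared loci these values stood at the 45.2, 35.5, 22.6 and 7.44 percentile, in that order. The lower quartile of all shared loci was −0.19 and their 5th percentile −0.67. No member was below −1, where 1.91% of loci lay. For downward shifts in percentile of more than 10 points the shares of all pairs were 9.44% by fold and 6.07% by −log10 q, and none of the 3 member pairs was among them.

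These intervals hold counting error only and leave out variation between libraries, so the order of the 6 loci is a description of these 2 libraries. Local medians stood near the values of VIM and ZEB1, but single loci spread widely. The 8 other shared loci within 1 Mb of VIM had a median of −0.18 (range −0.59 to 0.62). The 9 near ZEB1 had a median of −0.08 (range −0.37 to 0.58). ZEB2 had 3 such neighbours, with a median of −0.06 (range −1.06 to 0.41), and CDH2 only 1, at 0.86.

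**Figure D4:**
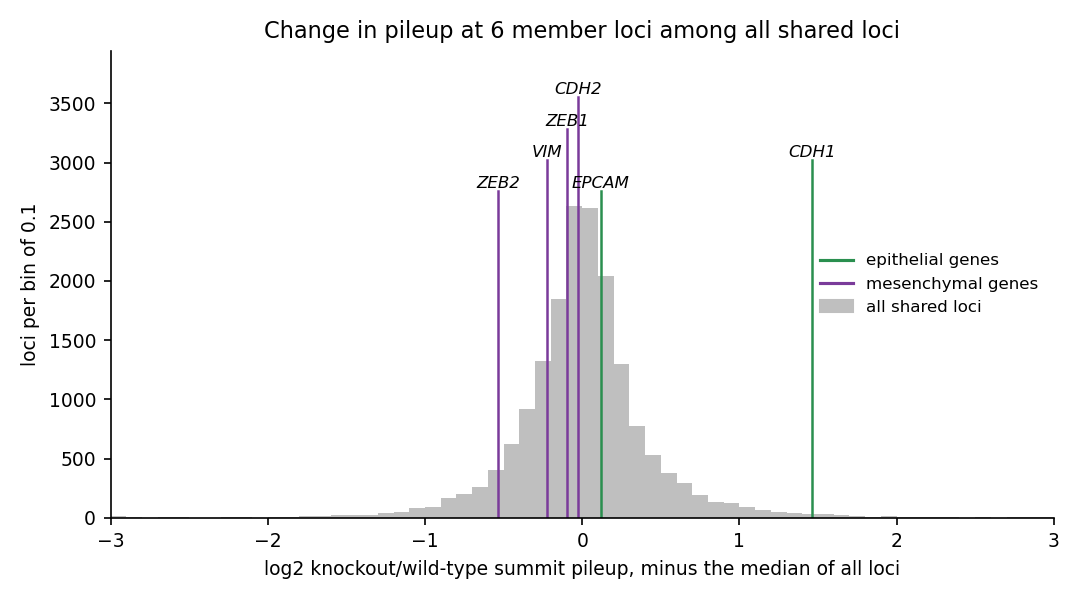
Knockout summit pileup over wild-type summit pileup, as a log2 ratio, at 17637 shared loci (grey, 0.1 per bin, values beyond 3 in the end bins), minus the median; the vertical axis counts loci and vertical lines are the 6 marked genes. CDH1 lies at 1.46, the other genes between −0.53 and 0.12.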

How the data were processed

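Each genotype, as given in the labels, had 1 H3K4me3 ChIP-seq library. The authors deposited 1 list per library in the 10-column narrowPeak layout, without a header. Bowtie2, SAMtools 1.12, MACS2 and deepTools and the build hg19 are named, per the submitters' processing notes. Settings, replicate pooling and any control library are not given in the sources used here, and total reads were not used. The deposited fold column (ratio of pileup to local rate) and the deposited −log10 p and −log10 q columns are the authors' own values and served to rank regions within 1 list only, since no scaling between lists is stated. The deposited score column was not used.

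Positions are hg19, counted from 1. Percentiles are mid-ranks among regions on chromosomes 1 to 22, X and Y, and overlap means at least 1 bp. Whole-number pileups and local rates were solved from the fold and p columns (Poisson upper tail, error relative to −log10 p up to 2.67e-05), with a solver tested on simulated data. Because pileups were higher across the knockout library, pileup ratios were centred on the median over shared loci. Ratio intervals are exact Clopper-Pearson intervals at 95% on the knockout share of fragments. Fragments carry no molecular identifiers, so intervals cover counting error only.

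All 7 genes are named whatever their values. Genes, lists and comparisons were chosen with earlier results of these data known, and pileup ratios, joined loci and spanning counts were added after the regions were seen. Alternatives were the window, a stricter q, merging, the set ranked and the overlap. A list of further epithelial and mesenchymal genes was not analysed, since it needs hg19 start sites, and loss of ZNF143 was not checked. The orientation of CDH1, EPCAM and ESRP1 is general knowledge, and that of the other genes is from RefSeq. Neighbouring genes come from the GRCh38.p14 gene table, by name only, and were counted where any part of the gene lay within 5 kb. The tools were Python 3.11.15 with scipy 1.17.1, pandas 2.3.3, numpy 2.4.6 and, for figures, matplotlib 3.10.9.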

Additional observations from a re-analysis of the deposited data

How the results depend on the processing

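No paired analysis was possible because there is a single library for each genotype, and no library could be left out. The count of 6 marked start sites was 5 in both lists within 1 kb or 2 kb, where ZEB2 dropped out, and 6 within 10 kb or with only regions of −log10 q 5 or more. CDH1 ranked higher in the knockout list under each alternative run. Its shift by fold of 40.7 points became 44.8 among pairs only and 14.3 by pileup, and its shift by −log10 q of 16.5 points became 15.2 and 14.3. Ranked by pileup in place of fold, EPCAM moved from −0.20 to 2.71 and ZEB2 from −0.28 to −6.41 points. The median fold percentile was 22.1 (wild type) and 34.3 (knockout) within 1 kb, 25.5 and 42.0 with −log10 q 5 or more, and 29.3 and 45.5 with all sequences. With only the nearest region it was 34.1 in the wild type. The median −log10 q percentile was 43.5 in the knockout within 1 kb, 39.5 and 42.3 with −log10 q 5 or more, and 43.9 and 46.8 with all sequences. The median wild-type width was 1015 bp within 10 kb, 1038.5 bp for the nearest region and 1597 bp after merging within 1 kb, and that of the knockout was 2129 bp within 1 kb. Scaling pileups to the genome background rates, chosen after seeing the data, lowered every log2 ratio by the same amount and placed the median of all loci at −0.32. CDH1 was then at 1.15 and ZEB2 at −0.85, and EPCAM turned from 0.12 to −0.20.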

Other observations

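Beyond 5 kb, a few small regions near the members were in 1 list only. In the wild-type list a region of 256 bp lay 9.03 kb into VIM, with a pileup of 14 fragments, and one of 311 bp lay 9.35 kb into CDH2, with a pileup of 20. No knockout region overlapped either of them. In the knockout list, regions of 348 and 358 bp lay 23.5 and 59.0 kb before EPCAM, with pileups of 30 and 17 fragments and no wild-type region overlapping them. By pileup, all 4 ranked low in their own lists, from the 4.16 to the 13.2 percentile. The share of all regions found in 1 list only is not given, so these 4 cannot be read as particular to these genes. Within 100 kb of CDH1, ZEB1 and ZEB2, no region was listed in either genotype apart from those already described.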
